A study of Caenorhabditis elegans with 12 samples.

Results

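The set described here is 41 genes of mitosis, namely mitotic kinases and genes of the centromere, kinetochore, spindle checkpoint, centrosome, spindle, condensin and anaphase onset. They were chosen by name and not by a cutoff on a measured value, but with earlier results of these data known. All 41 were found among the 46245 gene identifiers of the expression table. Every one passed the filter on low values, set at 1 FPKM averaged across the libraries, which left 12913 protein-coding genes for testing. FPKM, the number of fragments per length of transcript and per mapped fragments of the library, is a level that can be compared between genes.

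RNA was taken from whole, synchronized first-stage (L1) larvae of Caenorhabditis elegans. The N2 strain was the wild type, and lin-52(n771) III was the only mutant strain, so that effects of the allele and of any other genetic difference to N2 cannot be told apart. Larvae of each strain were fed for 3 h and then mock-treated or irradiated with UV-B at 60 mJ/cm2, and RNA was collected 6 h after treatment. Each strain and treatment gave 3 libraries, so that 12 libraries form 4 groups named by strain and by mock or UV. Levels are given as scaled FPKM, with SD over n = 3 libraries, and differences as log2(FPKM + 0.5) values ± SE, where the added 0.5 makes changes of weakly expressed genes look smaller. A difference is called when its adjusted p in limma is below 0.05 over all tested genes.

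Positions of genes are those of the WBcel235 assembly (Ensembl 115 annotation), matched by gene identifier, since the expression table holds none. The spans of some of these genes overlap a gene on the other strand, over 2728 bases for tpxl-1 (epg-2), 1494 for mix-1 (VM106R.1), 1250 for emb-30 (F54C8.1), 1041 for zyg-1 (bli-2) and 570 for knl-3 (T10B5.3). Whether fragments were assigned by strand is not given in the sources used here, so these levels are uncertain to that extent.

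At mitosis, chromosomes are compacted by condensin and topoisomerase II and attached to spindle microtubules by the kinetochore, a protein assembly built on the centromere. Worm chromosomes are holocentric, so the kinetochore forms along the whole length of the chromosome. Centrosomes organize the spindle poles, the spindle checkpoint delays anaphase until chromosomes are attached, and the anaphase-promoting complex then frees separase to cut cohesin. LIN-52 is a subunit of DREAM, a complex that represses many cell-cycle genes in cells that do not divide. Most cells of an L1 larva are differentiated somatic cells that no longer divide, while a minority of blast cells resume division after feeding. In whole-worm RNA, fewer dividing cells and less RNA per cell cannot be told apart.

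The transcript of lin-52 itself lay between 20.4 and 35.8 FPKM in the 6 N2 libraries and between 6.94 and 11.7 FPKM in the 6 mutant libraries. Ribosomal RNA took 11.6% to 22.6% of the FPKM of a library, with the highest shares in lin-52 mock 2 (22.6%) and lin-52 mock 4 (19.8%). Depth relative to N2 mock 1 ranged from 0.938 to 1.283. Among markers, the 6 yolk genes and the 8 early embryo genes stayed below 1 FPKM in every library. The summed level of 12 germline markers was 108 to 112 FPKM in N2 mock and 235 to 252 in lin-52 mock. After UV it was 118.9 to 122.2 in N2 and 249 to 271 in lin-52. Of the 11 germline markers tested, 4 (pgl-1, pgl-3, glh-1 and hrde-1) were called higher in the mutant and 7 were not called. Over these 11 the median strain difference was 0.01 without UV and 0.08 after it, beside -0.02 over all tested genes. Of all tested genes 3.59% were called higher without UV and 13% after it. The part of germline RNA in the results was not tested. The 6 body wall muscle markers summed to 2510 to 2598 FPKM in N2 mock and 1556 to 1710 in N2 UV, and to 2207 to 2347 in lin-52 mock and 1726 to 1847 in lin-52 UV. Scaling moved the balance of calls over all genes, from 463 higher and 225 lower without UV to 542 and 109 with the FPKM as deposited, and from 1673 and 1964 after UV to 2110 and 1449.

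The 41 genes were moderately expressed, and none was at 0 in any library. Their mean over all libraries ran from 9.44 FPKM (san-1) to 84.4 FPKM (top-2), with a median of 25.6. Replicates were close, with a median coefficient of variation of 3.77% within a group and a highest one of 18.5% (san-1 in N2 UV). Averaged over the 41 genes, the log2 level was 4.69 to 4.71 in the N2 mock libraries, 4.95 to 5.01 in lin-52 mock, 4.38 to 4.40 in N2 UV and 4.67 to 4.75 in lin-52 UV. The range of lin-52 UV enclosed that of N2 mock, with lin-52 UV 2 (4.67) just below and the other 2 libraries (4.75 each) just above it, and no other ranges overlapped. The library lin-52 mock 3, with the least ribosomal RNA of its group (14.7%), averaged 4.95, and the N2 mock libraries 4.69 to 4.71. The part of ribosomal RNA in the strain difference was not tested.

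**Figure D1:**
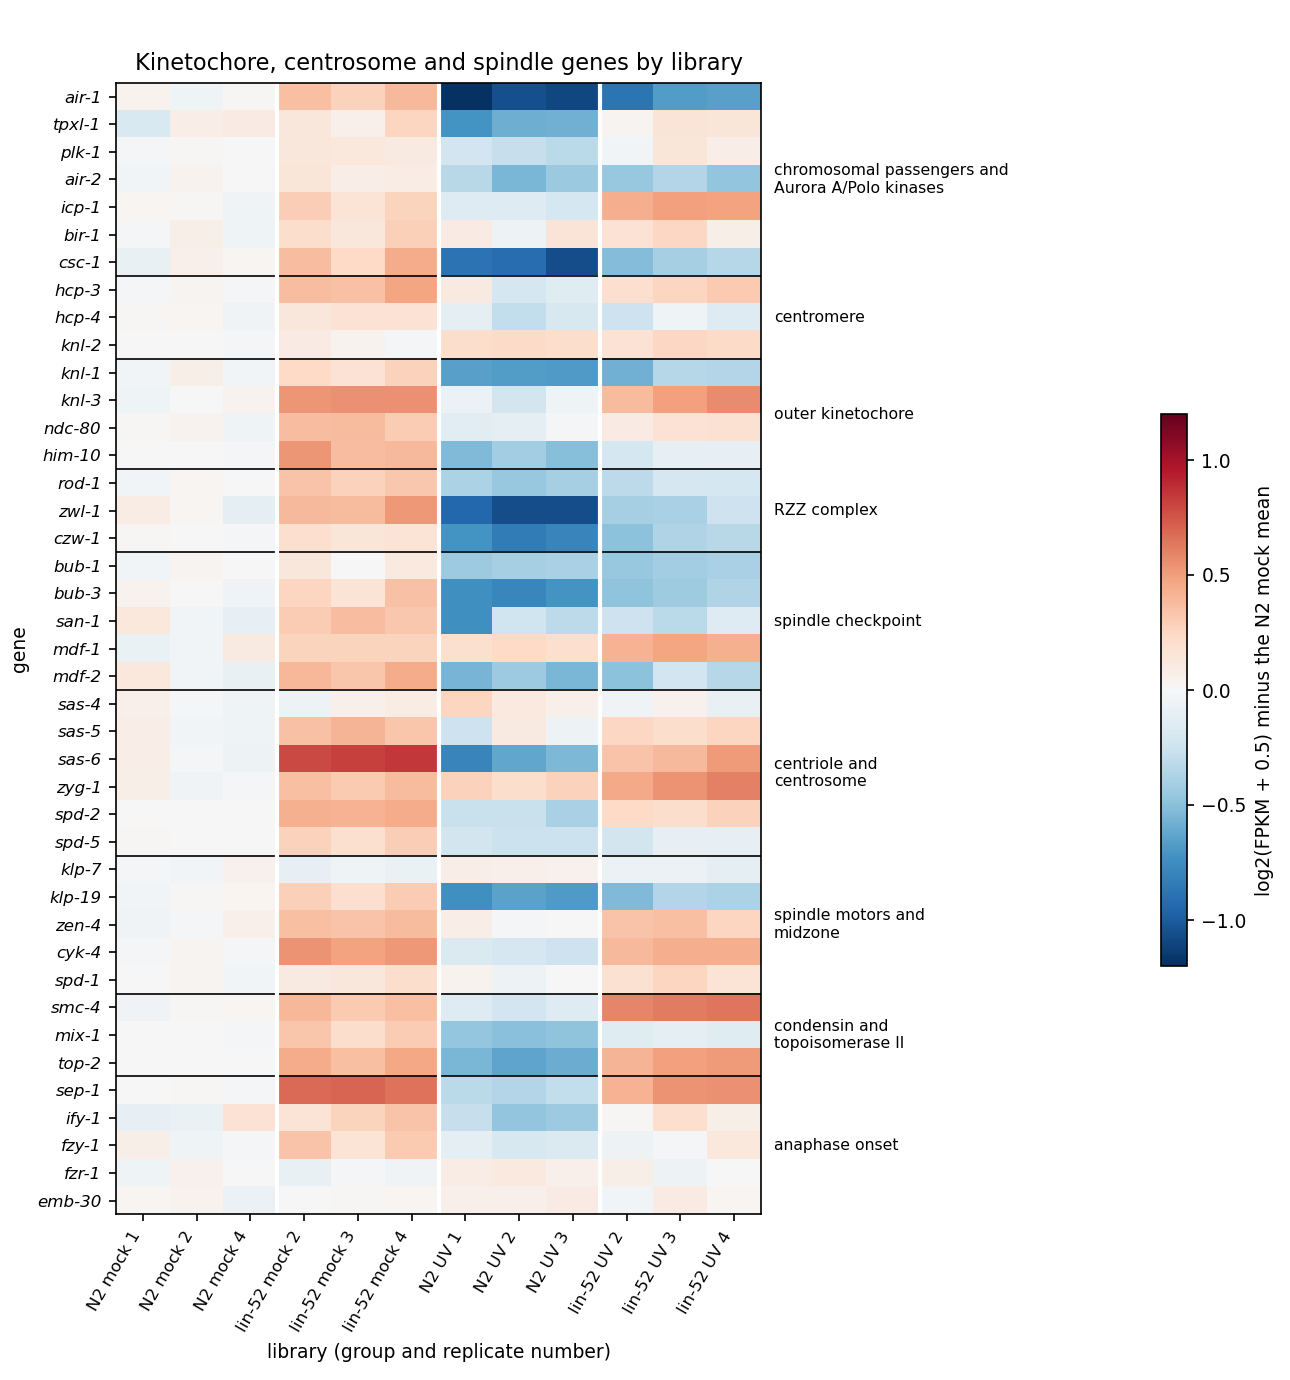
Rows are the 41 genes in their 9 functional groups and columns the 12 libraries, and color gives log2(FPKM + 0.5) minus the mean of the 3 N2 mock libraries, from blue (lower) to red (higher). Most rows are red in lin-52 mock and blue in N2 UV. Among the rows red in all 6 lin-52 libraries are sas-6, sep-1, smc-4 and top-2, and also knl-3, cyk-4 and spd-2.

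The first comparison asked which of these genes differed between mutant and wild-type larvae that received no UV. In lin-52 mock, 25 of the 41 genes were higher than in N2 mock, none was lower, and 16 were not called (limma with Benjamini-Hochberg adjustment). At an unadjusted p under 0.05 the count of lower genes was 0. Among all tested genes 3.59% were higher and 1.74% lower. The median difference was 0.27 over the 41 genes and -0.02 over all tested genes, and single genes ranged from -0.08 (klp-7) to 0.82 (sas-6). In 33 of the 41 genes every lin-52 mock library lay above every N2 mock library. The same share over all tested genes was not counted, so this number stands without a baseline. Each functional group held at least 1 gene that was higher. The calls rested in part on lin-52 mock 2 and 4. With these 2 ribosomal RNA-rich libraries left out, which leaves a single lin-52 mock library and a larger SE, 9 genes were called (knl-3, ndc-80, him-10, sas-6, spd-2, cyk-4, smc-4, top-2 and sep-1) and the median was 0.242.

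The centriole and centrosome genes gave 5 higher members of 6. The largest strain difference of the whole set belonged to sas-6, which encodes the structural protein that sets up new centrioles (chromosome IV from 13786945 to 13788731, minus strand). Its level was 13.4, 12.5 and 12.1 FPKM in the N2 mock libraries and 22.3, 22.8 and 23.3 in lin-52 mock. The mutant libraries stood apart from N2 without overlap, and the difference was 0.82 ± 0.07 (limma adjusted p = 2.1e-05). The genes spd-2, whose product recruits pericentriolar material (0.43 ± 0.04), sas-5, a partner of SAS-6 (0.37 ± 0.08), zyg-1, the kinase that starts centriole duplication (0.35 ± 0.06), and spd-5, the scaffold of the pericentriolar material (0.26 ± 0.04), were higher by less. The call of sas-5 was lost under 6 of 24 alternative settings, which changed the scaling, the pseudocount, the filter or the fit or left out libraries. The centriole gene sas-4 was at 0.03 ± 0.07 and not called.

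At anaphase onset the strain difference was uneven, with 2 genes of 5 called. Separase, the protease that cuts cohesin, is encoded by sep-1 (chromosome I from 3433158 to 3438543, minus strand), which stood at 10.9, 11.1 and 10.8 FPKM in N2 mock and 17.8, 18.01 and 17.5 in lin-52 mock. All 3 mutant libraries exceeded all 3 N2 libraries, with a difference of 0.68 ± 0.05 (limma adjusted p = 4.38e-06). For fzy-1, which encodes the Cdc20 activator of the anaphase-promoting complex, the levels were 22.1, 20.3 and 20.8 in N2 mock and 26.9, 23.7 and 26.2 in lin-52 mock. Its groups did not overlap, and its call (0.27 ± 0.06, limma adjusted p = 0.0288) was lost under 6 of 24 alternatives. The securin gene ify-1 (0.26 ± 0.09), the Cdh1 activator gene fzr-1 (-0.05 ± 0.05) and emb-30, a subunit of the complex (0.01 ± 0.05), were not called.

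In the outer kinetochore, which binds microtubules, 3 of 4 genes were higher. The gene knl-3, a subunit of the Mis12 complex (chromosome V from 1869213 to 1870558, plus strand), was at 19.9, 20.7 and 21.2 FPKM in N2 mock and at 29.96, 30.3 and 30.4 in lin-52 mock. Replicates of the mutant differed by less than 1 FPKM and did not overlap with N2 (difference 0.54 ± 0.06, limma adjusted p = 0.000105). The Nuf2 gene him-10 (0.43 ± 0.06) and ndc-80 (0.35 ± 0.05) belong to the Ndc80 complex and were also higher, while the scaffold gene knl-1 (0.23 ± 0.06) missed the threshold (limma adjusted p = 0.0629). At the centromere, hcp-3, the worm gene for the histone variant CENP-A, was at 20.99, 21.9 and 21.1 FPKM in N2 mock and 27.7, 27.3 and 29.9 in lin-52 mock. The 2 groups did not overlap (difference 0.40 ± 0.07). The CENP-C gene hcp-4 (0.16 ± 0.06) and knl-2, needed to load CENP-A (0.04 ± 0.04), were not called.

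The RZZ complex, which recruits dynein and the checkpoint proteins to the kinetochore, had 2 higher genes of 3. They were zwl-1 (0.43 ± 0.07) and rod-1 (0.31 ± 0.04), and the ZW10 gene czw-1 was at 0.17 ± 0.05 (limma adjusted p = 0.0595). Among the 5 checkpoint genes 3 were higher. The Mad2 gene mdf-2 led them, with 48.9, 43.8 and 42.3 FPKM in N2 mock and 59.4, 56.6 and 61.5 in lin-52 mock. Its groups were separate (difference 0.39 ± 0.07, limma adjusted p = 0.00775). The Mad1 gene mdf-1 (0.27 ± 0.05) and bub-3 (0.26 ± 0.05) followed. The call of bub-3 was lost under 4 of 24 alternatives, with N2 mock 4 or lin-52 mock 4 left out among them (limma adjusted p up to 0.26), and that of mdf-2 under 2. The checkpoint kinase gene bub-1 (0.08 ± 0.04) and the Mad3 gene san-1 (0.34 ± 0.12), which had the widest SE of the set, were not called.

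Spindle motor and midzone genes had 3 higher members of 5. In the lead was cyk-4, which encodes a subunit of centralspindlin, the complex of the spindle midzone (chromosome III from 13768648 to 13771224, minus strand), at 29.9, 31.2 and 30.1 FPKM in N2 mock and 44.4, 42.6 and 43.8 in lin-52 mock. No library of either group approached the other (difference 0.51 ± 0.04, limma adjusted p = 3.72e-06). Its kinesin partner zen-4 (0.36 ± 0.05) and the chromokinesin klp-19 (0.26 ± 0.05) were higher. The call of klp-19 was lost under 5 of 24 alternatives, with N2 mock 1, lin-52 mock 2 or lin-52 mock 4 left out among them (limma adjusted p up to 0.249). The microtubule bundler spd-1 (0.15 ± 0.05) and the depolymerizing kinesin klp-7 (-0.08 ± 0.04) were not called. All 3 genes of chromosome compaction were higher, namely top-2 (0.42 ± 0.04), smc-4 (0.36 ± 0.04) and mix-1 (0.28 ± 0.04). Of the 7 kinase and chromosomal passenger genes, csc-1 (0.35 ± 0.07), the Aurora A gene air-1 (0.34 ± 0.06) and the INCENP gene icp-1 (0.24 ± 0.04) were higher. The call of csc-1 was lost under 4 alternatives, each leaving out N2 mock 1, lin-52 mock 2, lin-52 mock 4 or both of the latter (limma adjusted p up to 0.28). The survivin-like bir-1 (0.21 ± 0.06), the Aurora A activator tpxl-1 (0.15 ± 0.09), the Polo kinase gene plk-1 (0.12 ± 0.04) and the Aurora B gene air-2 (0.10 ± 0.06) were not called.

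**Figure D2:**
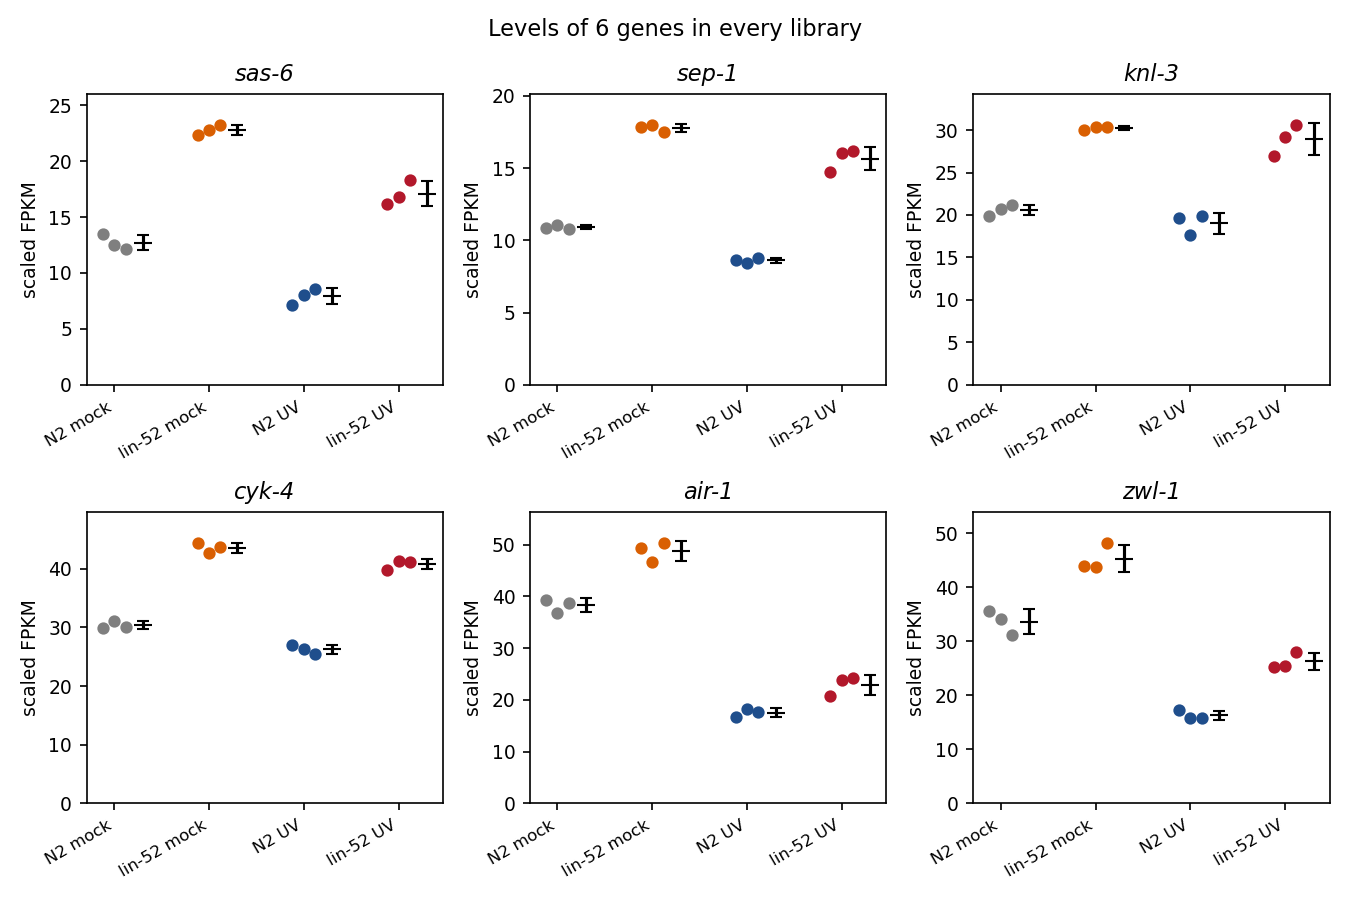
Each panel shows scaled FPKM of 1 gene, on an axis that starts at 0, in the 4 groups, with a point per library and a bar for the mean ± SD (n = 3). In all 6 panels the lin-52 libraries lie above the N2 libraries of the same treatment, and air-1 and zwl-1 are lower after UV in both strains.

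The same comparison in irradiated larvae gave 28 of 41 genes higher in lin-52 UV than in N2 UV, 1 lower and 12 not called. Of all tested genes 13% were higher and 15.2% lower. The median difference was 0.30 over the 41 genes and -0.02 over all tested genes. In 30 of the 41 genes every lin-52 UV library lay above every N2 UV library. This count too has no baseline, as it was not made over all tested genes. One library, lin-52 UV 2, was below its group mean in all but 5 of the 41 genes, and without it 31 were called higher. Leaving it out also raised the calls over all tested genes, from 1673 to 1853 higher and from 1964 to 2078 lower. The comparisons with and without UV share no library, and 22 genes were higher in both, which are 22 of the 25 called without UV and 22 of the 28 called after UV. Over all tested genes 2.59% were higher in both. Across the 41 genes, which are not independent of each other and were scaled together, the differences without and after UV had r = 0.76 and rho = 0.70.

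After UV the largest strain differences were those of sas-6 and of the type II topoisomerase gene top-2 (1.06 ± 0.04). The N2 UV libraries had 7.12, 8.05 and 8.57 FPKM of sas-6 and the lin-52 UV libraries 16.2, 16.8 and 18.3. The lowest mutant library was well above the highest N2 library (difference 1.07 ± 0.07, limma adjusted p = 1.96e-06). Among other genes with large differences were sep-1, at 8.63, 8.45 and 8.80 in N2 and 14.8, 16.1 and 16.2 in the mutant (difference 0.82 ± 0.05), and cyk-4, at 26.9, 26.4 and 25.5 in N2 and 39.8, 41.4 and 41.2 in the mutant (difference 0.63 ± 0.04). For knl-3 the levels were 19.6, 17.6 and 19.9 in N2 UV and 26.9, 29.2 and 30.6 in lin-52 UV (difference 0.59 ± 0.06). None of these genes had overlapping groups, and their calls were kept under all 24 alternatives.

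Genes called higher after UV but not without it were tpxl-1 (0.74 ± 0.09), plk-1 (0.34 ± 0.04), ify-1 (0.49 ± 0.09), czw-1 (0.39 ± 0.05), knl-1 (0.25 ± 0.06) and spd-1 (0.21 ± 0.05). Among these 6 the test of the difference between conditions passed the threshold for tpxl-1 and plk-1. For plk-1 that call was lost under 17 of 23 alternatives. The call of knl-1 after UV was lost under 4 of 24 alternatives, with lin-52 UV 3 or lin-52 UV 4 left out among them (limma adjusted p up to 0.0667). Of the genes higher in both conditions, rod-1 lost its call after UV under 5 alternatives (limma adjusted p up to 0.0655) and sas-5 under 2. In the other direction mdf-2 (0.16 ± 0.07), fzy-1 (0.18 ± 0.06) and spd-5 (0.11 ± 0.04) were called without UV and not after it. The genes air-2, bir-1, hcp-4, knl-2, bub-1, san-1, sas-4, fzr-1 and emb-30 were called in neither. The single lower gene was klp-7, a kinesin that depolymerizes microtubules, at 34.9, 34.6 and 34.2 FPKM in N2 UV and 31.4, 31.5 and 30.5 in lin-52 UV. Its groups did not overlap, but the difference was small (-0.15 ± 0.04, limma adjusted p = 0.0108), and its call was lost with the FPKM as deposited and with an equal sum of FPKM (limma adjusted p up to 0.137).

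**Figure D3:**
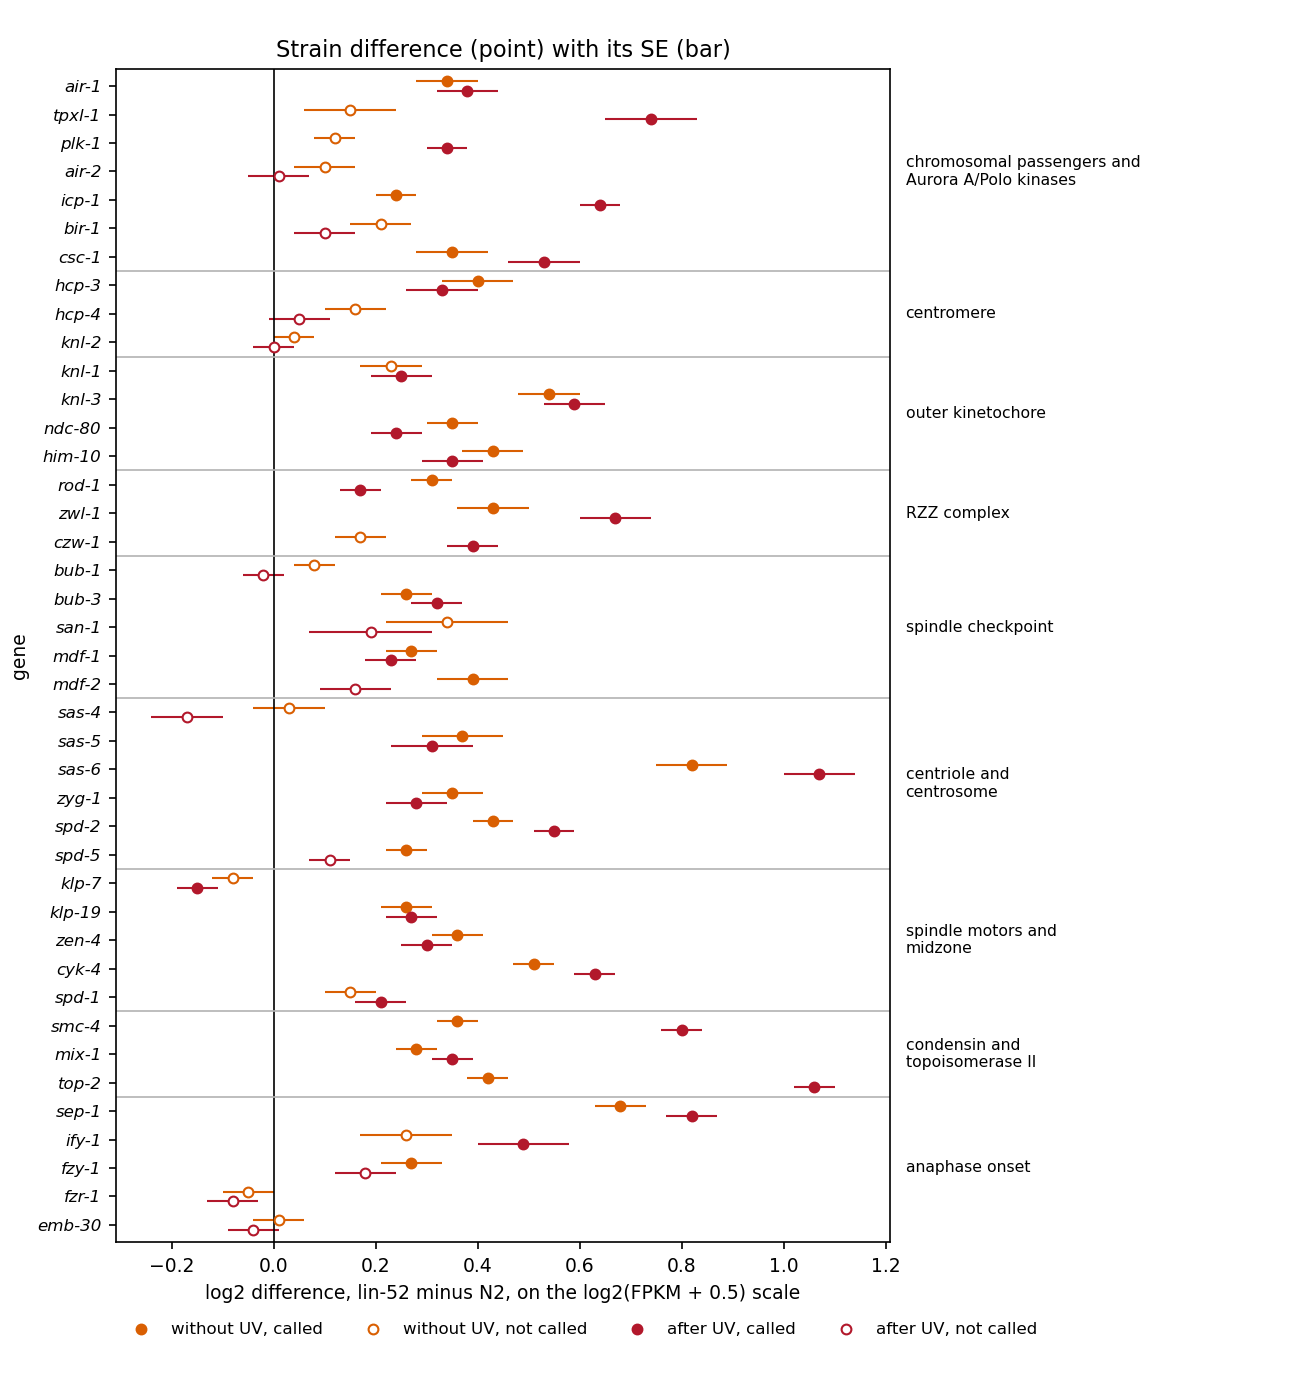
Points are the log2 difference between lin-52 and N2 for each of the 41 genes without UV (orange) and after UV (red), bars are its SE, and filled points are called. Of the points, 25 without UV and 28 after UV are called to the right of 0, and klp-7 after UV is the only called point to the left.

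The third comparison asked what UV did to these genes within each strain. In N2 UV, 27 of the 41 genes fell against N2 mock, 3 rose and 11 were not called. Over all tested genes 37% fell and 36.6% rose, and the median difference was -0.28 over the 41 genes against 0.00 over all. With the FPKM as deposited and with an equal sum of FPKM, 25 fell and 7 rose. In lin-52 UV, 22 fell against lin-52 mock, 5 rose and 14 were not called, beside 33.5% and 33.1% of all tested genes, with medians of -0.18 and 0.00. The 11 markers of dividing cells, namely the replication genes pcn-1, rnr-1 and mcm-2 to mcm-7 and the mitotic genes cdk-1, cyb-1 and cyb-3, all fell in both strains. Their summed level was 713 to 728 FPKM in N2 mock and 394 to 410 in N2 UV, and 750 to 803 in lin-52 mock and 443 to 499 in lin-52 UV, and their part in the fall of the 41 genes was not tested. Without UV only mcm-7 of these 11 markers was called between strains. At an unadjusted p under 0.05 in limma 6 were higher in lin-52, and the median difference was 0.13. After UV 8 were called higher in lin-52 and none lower, with a median of 0.25. Over all tested genes 3.59% were called higher in lin-52 without UV and 13% after it. With UV all 6 body wall muscle markers also fell in both strains. Of 7 neuron markers 5 fell and 1 rose in N2, and 6 fell in lin-52. No germline marker fell, and of the 11 tested 6 rose in N2 and 5 in lin-52.

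The 2 UV comparisons share no library. In both strains 21 of the 41 genes fell and 3 rose (knl-2, mdf-1 and zyg-1), beside 30.6% and 29.8% of all tested genes. Across the 41 genes the UV differences of the strains had r = 0.82 and rho = 0.80.

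The deepest fall was that of air-1, the gene of Aurora A, the kinase that matures centrosomes (chromosome V from 8221488 to 8223582, plus strand). Its level went from 39.4, 36.8 and 38.8 FPKM in N2 mock to 16.6, 18.2 and 17.7 in N2 UV. In lin-52 it went from 49.4, 46.6 and 50.3 to 20.7, 23.9 and 24.2. The UV libraries of each strain were all below its mock libraries (differences -1.11 ± 0.06 and -1.07 ± 0.06, limma adjusted p = 1.77e-08 and 3.93e-08). A subunit of the chromosomal passenger complex, csc-1, fell almost as far, from 24.6, 27.4 and 26.7 to 13.9, 13.7 and 12.3 in N2 and from 34.01, 31.1 and 35.8 to 18.1, 19.8 and 20.6 in lin-52 (differences -0.95 ± 0.07 and -0.77 ± 0.07). The groups were separate in both strains. Aurora B, the kinase of the same complex, is encoded by air-2 and fell by less (-0.44 ± 0.06 and -0.53 ± 0.06), while bir-1, for another subunit, was not called (0.06 ± 0.06 and -0.04 ± 0.06).

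All 3 RZZ genes fell in both strains. The largest fall was in zwl-1, which stood at 35.6, 34.03 and 31.1 FPKM in N2 mock and 17.2, 15.8 and 15.8 in N2 UV. In the mutant it stood at 43.95, 43.7 and 48.1 without UV and 25.3, 25.4 and 28.04 after it. The irradiated libraries lay far below the others (differences -1.02 ± 0.07 and -0.77 ± 0.07). The falls of czw-1 (-0.78 ± 0.05 and -0.57 ± 0.05) and rod-1 (-0.41 ± 0.04 and -0.56 ± 0.04) were smaller.

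In the spindle checkpoint 4 of 5 genes fell in each strain and mdf-1 rose. The checkpoint gene bub-3 fell most in N2, from 49.2, 47.9 and 46.4 FPKM to 28.6, 27.6 and 28.9, and in lin-52 went from 57.3, 53.5 and 61.2 to 34.1, 35.5 and 37.2. The groups were far apart (differences -0.74 ± 0.05 and -0.68 ± 0.05). In lin-52 the largest fall was that of mdf-2, to 31.7, 38.3 and 35.4 (-0.75 ± 0.07), and in N2 its level after UV was 30.3, 33.1 and 30.5 (-0.52 ± 0.07). Smaller falls were seen in bub-1 (-0.41 ± 0.04 and -0.51 ± 0.04) and san-1 (-0.43 ± 0.12 and -0.58 ± 0.12). The rise of mdf-1 was 0.21 ± 0.05 in N2 and 0.17 ± 0.05 in lin-52.

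Outer kinetochore genes fell unevenly. The scaffold gene knl-1 had the largest fall, from 26.2, 28.03 and 26.1 FPKM in N2 mock to 16.8, 16.6 and 16.5 in N2 UV, and from 31.6, 30.2 and 32.4 to 17.8, 20.9 and 20.9 in lin-52. Mock and UV libraries did not overlap (differences -0.67 ± 0.06 and -0.65 ± 0.06). The gene him-10 fell in both strains (-0.48 ± 0.06 and -0.56 ± 0.06), ndc-80 was called in lin-52 alone (-0.20 ± 0.05, against -0.09 ± 0.05 in N2, and the test of the strain difference was not passed), and knl-3 was called in neither (-0.11 ± 0.06 and -0.06 ± 0.06). At the centromere hcp-4 fell, from 23.9, 24.7 and 24.7 to 18.2, 20.9 and 19.5 in lin-52 and from 21.9, 22.2 and 21.2 to 20, 17.7 and 19.03 in N2 (-0.32 ± 0.06 and -0.20 ± 0.06). The smaller fall in N2 was not called with the FPKM as deposited or with an equal sum (limma adjusted p up to 0.101). In contrast knl-2 rose, from 23.5, 23.6 and 23.2 to 27.3, 27.5 and 27.2 in N2 and from 25.2, 24.1 and 23.3 to 26.5, 27.9 and 27.5 in lin-52 (0.22 ± 0.04 and 0.17 ± 0.04), with no overlap in either strain, and hcp-3 was not called (-0.08 ± 0.07 and -0.14 ± 0.07).

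Among centriole and centrosome genes 3 of 6 fell in each strain. They were sas-6 (-0.65 ± 0.07 in N2 and -0.41 ± 0.07 in lin-52), spd-2 (-0.31 ± 0.04 and -0.19 ± 0.04) and spd-5 (-0.25 ± 0.04 and -0.40 ± 0.04). The kinase gene zyg-1 rose (0.25 ± 0.06 and 0.18 ± 0.06), a call lost in lin-52 under 4 of 24 alternatives, and sas-4 and sas-5 were not called. Of the motor and midzone genes klp-19, whose product pushes chromosomes toward the spindle equator, fell most, from 36.8, 38.04 and 38.5 FPKM to 22.5, 24.04 and 23.3 in N2 and from 46.2, 43.4 and 46.7 to 26.1, 29.4 and 28.9 in lin-52. The 2 falls were close in size (-0.69 ± 0.05 and -0.68 ± 0.05, with a 95% interval for their difference of -0.16 to 0.17). The gene cyk-4 fell by 0.21 ± 0.04 in N2 and by 0.09 ± 0.04 in lin-52, and the second of these calls was lost under 14 of 24 alternatives (limma adjusted p up to 0.765). The genes zen-4, spd-1 and klp-7 were called in neither strain, with differences between -0.04 and 0.06.

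At anaphase onset sep-1 (-0.32 ± 0.05 and -0.18 ± 0.05) and fzy-1 (-0.16 ± 0.06 and -0.26 ± 0.06) fell in both strains. The call of fzy-1 in N2 was lost under 7 of 24 alternatives, and that of sep-1 in lin-52 under 3. Securin ify-1 stood at 16.97, 17.2 and 20.6 FPKM in N2 mock and 14.96, 12.9 and 13.3 in N2 UV, and at 20.4, 22.1 and 23.2 in lin-52 mock and 18.3, 20.97 and 19.1 in lin-52 UV. It fell in N2 (-0.40 ± 0.09), where the groups did not overlap, and in lin-52 the difference was not called and the groups overlapped (-0.16 ± 0.09). The strain difference of these effects was not called either (0.23 ± 0.12, limma adjusted p = 0.255). The genes fzr-1 and emb-30 were at 0.02 to 0.09 and not called. Of the condensin genes, mix-1, an SMC subunit that condensin shares with the dosage compensation complex of the worm, fell in both strains. It went from 44.2, 44.3 and 43.8 FPKM to 31.8, 30.9 and 31.5 in N2 and from 55.5, 51.2 and 54.6 to 39.9, 40.8 and 39.8 in lin-52 (-0.48 ± 0.04 and -0.42 ± 0.04). No mock library overlapped with a UV library of its strain.

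**Figure D4:**
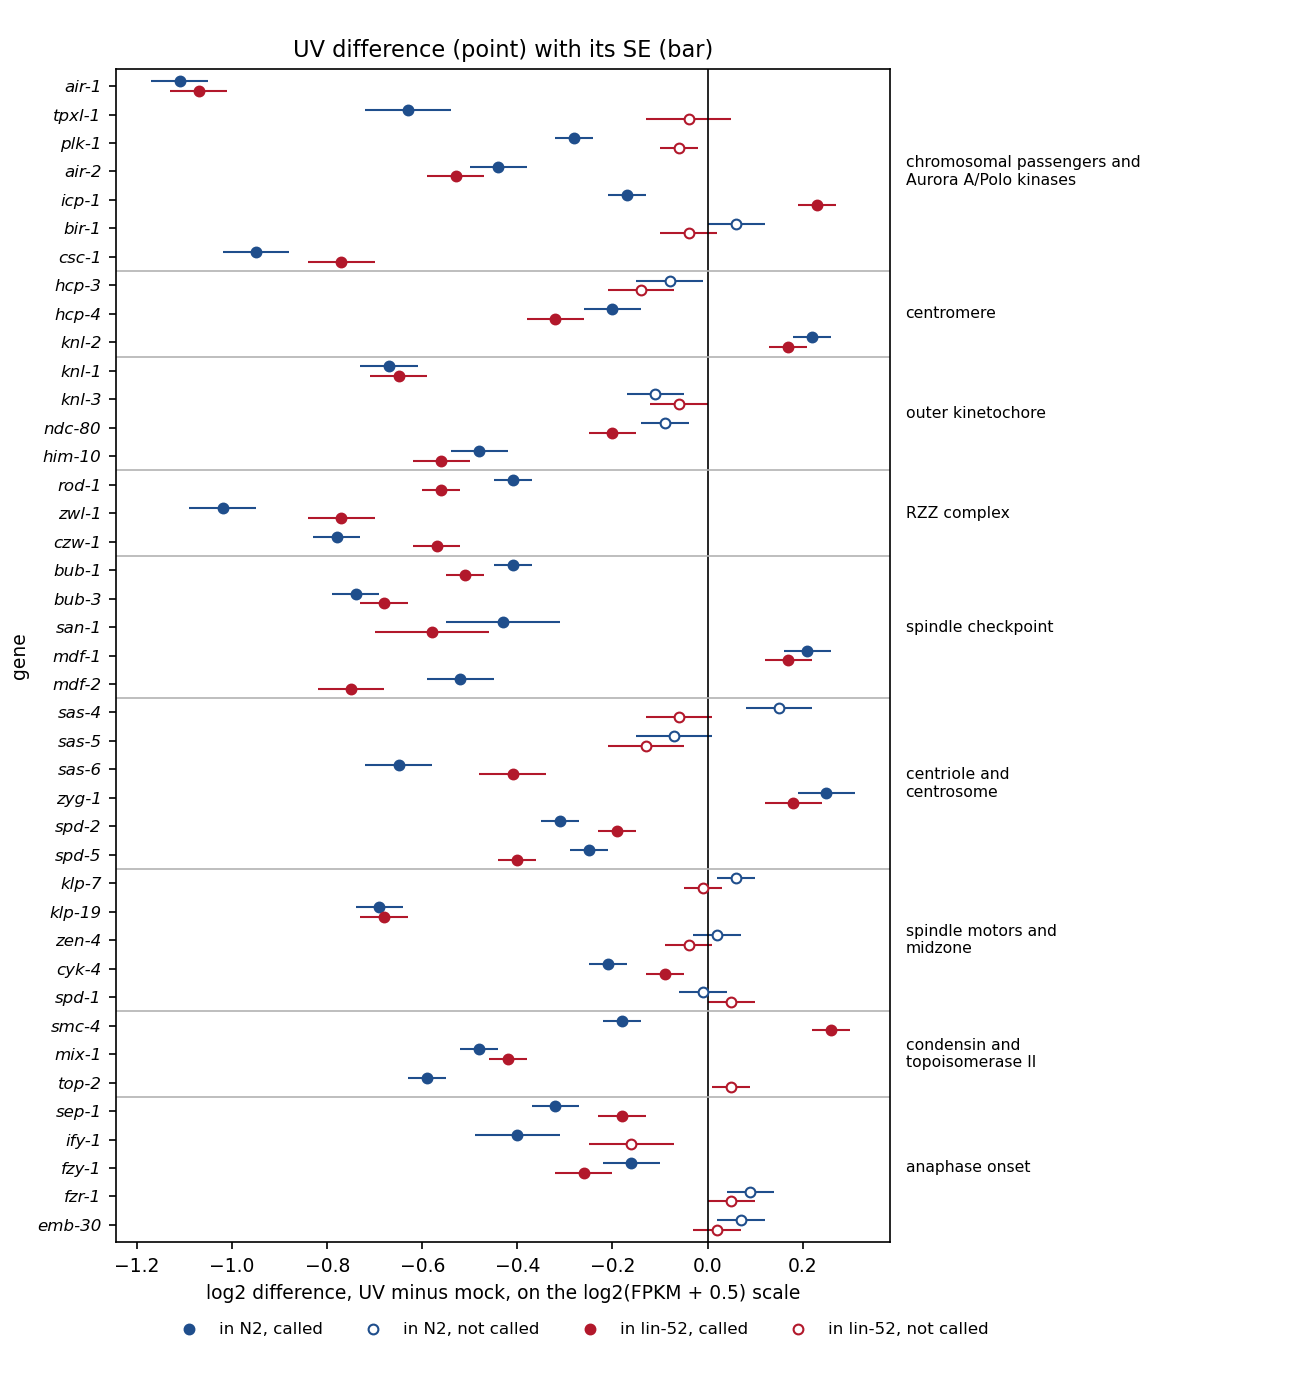
Points are the log2 difference between UV and mock for each of the 41 genes in N2 (blue) and in lin-52 (red), bars are its SE, and filled points are called. Both strains lie left of 0 for most genes, led by air-1, and smc-4 and icp-1 are called to the left in N2 and to the right in lin-52.

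The last comparison tested whether the UV effect differed between strains, that is, the UV difference in lin-52 minus that in N2. It was above 0 and called in 5 of the 41 genes, below 0 and called in none (3 in limma at an unadjusted p under 0.05), and not called in 36, beside 5.44% and 6.2% of all tested genes. The 5 genes were top-2, tpxl-1, smc-4, icp-1 and plk-1. The median over the 41 genes was -0.04, and it was 0.00 over all tested genes. For 34 of the 36 genes not called, the 95% interval of the difference lay within -0.5 and 0.5. That limit is wider than the called differences of smc-4 (0.44), icp-1 (0.40) and plk-1 (0.22). The interval of plk-1 (0.08 to 0.35) lay within it too, so the count does not show that the UV effects were alike. The same count was not made over all tested genes. The SE of the differences of the 41 genes was 0.05 to 0.16.

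The largest was that of top-2, which encodes the topoisomerase that untangles sister chromatids (chromosome II from 11875148 to 11880588, plus strand). N2 mock libraries had 76.8, 77.3 and 76.4 FPKM and N2 UV libraries 52.5, 49.2 and 50.7. In lin-52 the mock libraries had 105, 98.9 and 106 and the UV libraries 102, 108 and 109.6. The N2 groups were far apart while the lin-52 groups overlapped. The gene fell by 0.59 ± 0.04 in N2 (fold 0.66), was at 0.05 ± 0.04 and not called in lin-52 (95% interval -0.04 to 0.13), and the difference of these effects was 0.64 ± 0.06 (limma adjusted p = 0.0002). After UV it was 2.09-fold higher in lin-52 than in N2. With the FPKM as deposited and with an equal sum of FPKM, its UV difference in lin-52 was called as a rise.

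The condensin ATPase gene smc-4 (chromosome III from 4587501 to 4593124, plus strand) moved in opposite directions. Its level was 36.99, 38.6 and 38.8 FPKM in N2 mock and 34.2, 32.5 and 34.1 in N2 UV, and 50.4, 47.6 and 49.03 in lin-52 mock and 57.5, 58.9 and 59.7 in lin-52 UV. Neither strain had overlapping groups, with a fall in N2 (-0.18 ± 0.04), a rise in lin-52 (0.26 ± 0.04) and a difference of 0.44 ± 0.05 (limma adjusted p = 0.00122). The gene capg-2, for a regulatory subunit of condensin and not one of the 41, had 15.7, 16.5 and 16.4 FPKM in N2 mock and 13.9, 13.2 and 13.4 in N2 UV. In the mutant it had 20.5, 23.4 and 22.8 without UV and 27.7, 27.1 and 29.4 after it. It too fell in N2 (-0.26 ± 0.06) and rose in lin-52 (0.33 ± 0.06), with a difference of 0.59 ± 0.08 (limma adjusted p = 0.00221). Not every condensin gene showed this. The difference was 0.07 ± 0.05 for mix-1 (95% interval -0.04 to 0.18), 0.04 ± 0.07 for capg-1 and 0.12 ± 0.09 for hcp-6, the last 2 named after their values were seen, and none of these was called.

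The INCENP gene icp-1, whose product holds the chromosomal passenger complex together, and tpxl-1, the activator of Aurora A, are neighbours on the minus strand of chromosome I, with 115 bases between them (chromosome I from 2304513 to 2306790 and chromosome I from 2297392 to 2304397). For icp-1 the N2 libraries had 34.3, 34.1 and 32.7 FPKM after mock treatment and 30.2, 30.3 and 29.1 after UV, and the lin-52 libraries had 41.5, 37.8 and 40.5 after mock treatment and 45.8, 47.5 and 47.4 after UV. It fell in N2 (-0.17 ± 0.04) and rose in lin-52 (0.23 ± 0.04), without overlap in either, and the effects differed by 0.40 ± 0.06 (limma adjusted p = 0.00353). For tpxl-1 the levels were 9.93, 11.96 and 12.2 in N2 mock and 6.66, 7.34 and 7.40 in N2 UV, and 12.5, 11.8 and 13.7 in lin-52 mock and 11.5, 12.7 and 12.5 in lin-52 UV. The N2 groups were separate and the lin-52 groups overlapped (-0.63 ± 0.09, called, and -0.04 ± 0.09, not called), and the effects differed by 0.59 ± 0.12 (limma adjusted p = 0.0133). How the counting divided fragments between neighbours is not given in the sources used here. After UV the log2 difference between strains was -0.20 for epg-2, the gene opposite tpxl-1, and 0.74 for tpxl-1. Whether fragments of 1 of these genes were counted for the other was not tested.

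The Polo kinase gene plk-1 (chromosome III from 8101348 to 8104069, plus strand), which acts in centrosome maturation and mitotic entry, had the smallest of these differences. Its level was 48.4, 49.7 and 49.1 FPKM in N2 mock and 41.6, 40.4 and 39.1 in N2 UV. In the mutant it was 53.9, 53.7 and 53.05 without UV and 47.95, 54.2 and 51.8 after it. The N2 groups did not overlap and the lin-52 groups did (-0.28 ± 0.04, called, and -0.06 ± 0.04, not called). The difference of 0.22 ± 0.06 was just past the threshold (limma adjusted p = 0.0469), and its call was lost under 17 of 23 alternatives. The calls of top-2, smc-4, icp-1 and tpxl-1 were kept under all 23. Among the dividing cell markers pcn-1, the sliding clamp of replication forks, and mcm-2 had a positive called difference as well, as did 4 of the 6 body wall muscle markers. Of the 7 neuron markers 2 had a positive called difference and 1 a negative one, and no germline marker was called. The part of any cell type in these results was not tested.

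**Figure D5:**
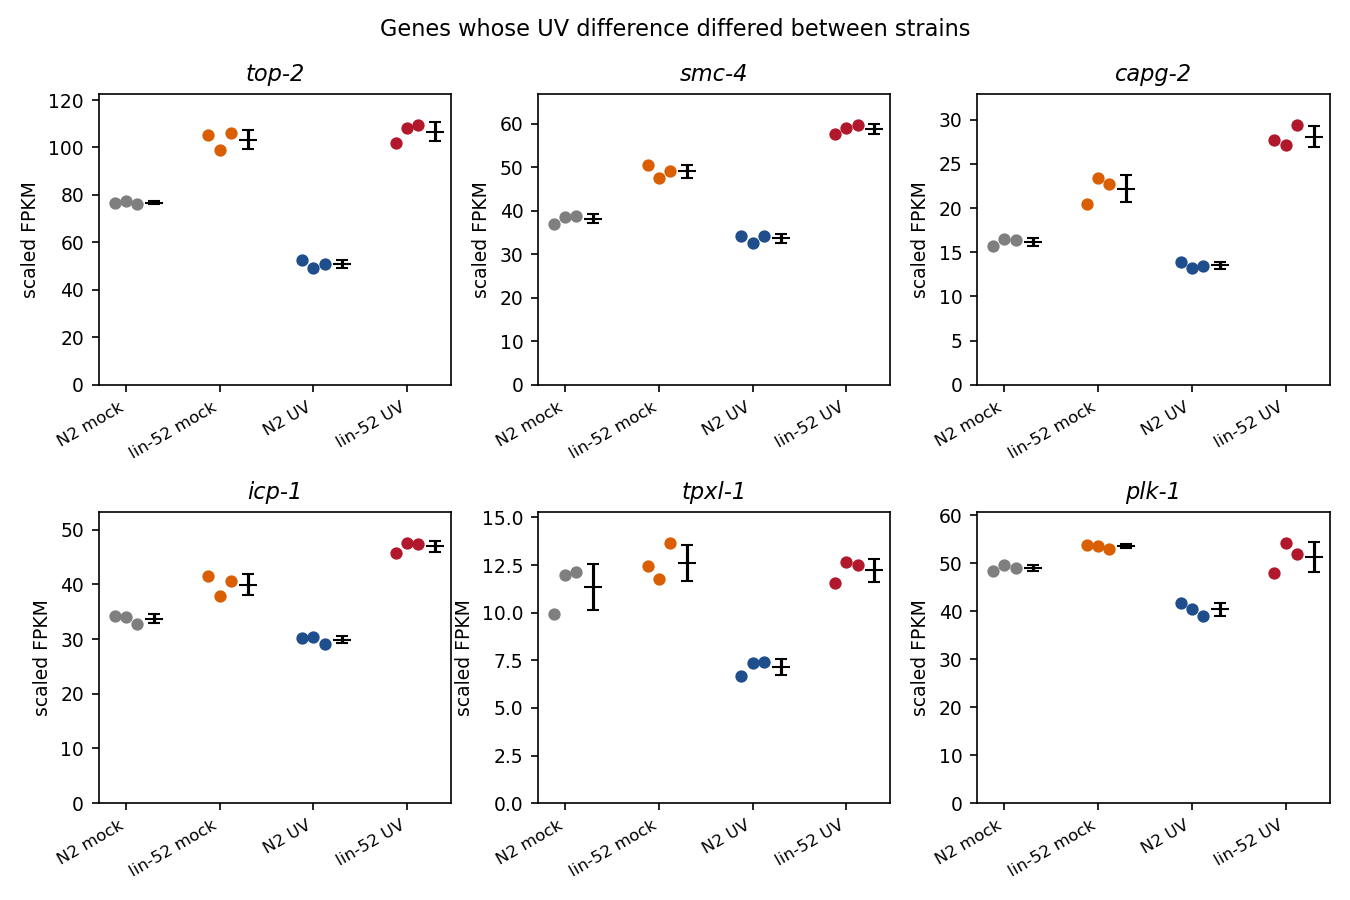
Each panel shows scaled FPKM of 1 gene, on an axis that starts at 0, in the 4 groups, with a point per library and a bar for the mean ± SD (n = 3). In all 6 panels, capg-2 included, the N2 UV libraries are the lowest, and for smc-4, capg-2 and icp-1 the lin-52 UV libraries are the highest.

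Other genes of the same machinery were taken from lists of 64 genes, all of which passed the filter. Without UV, 22 were higher in lin-52, 2 were lower and 40 were not called, with a median of 0.15, beside 3.59% higher and 1.74% lower over all tested genes. After UV the numbers were 26, 6 and 32, with a median of 0.10, beside 13% and 15.2%. With UV 30 fell and 13 rose in N2, and 32 fell and 13 rose in lin-52, with medians of -0.07 and -0.11. Over all tested genes 37% fell and 36.6% rose in N2, and 33.5% fell and 33.1% rose in lin-52. Among the 19 other kinetochore, condensin and cohesin genes, 10 were higher and none lower in lin-52 mock. The Spc25 gene kbp-3, a subunit of the Ndc80 complex, had the largest strain difference of this list. It was at 40.8, 40.7 and 40.4 FPKM in N2 mock and 80.8, 77.7 and 98.98 in lin-52 mock, and at 21.3, 22.2 and 22.3 in N2 UV and 45.7, 58.7 and 50.5 in lin-52 UV. The strains did not overlap (1.06 ± 0.09 in mock and 1.21 ± 0.09 in irradiated larvae, limma adjusted p = 2.25e-05 and 6.73e-06). The Mis12 complex gene kbp-2 fell with UV in N2 (-0.88 ± 0.11) and in lin-52 (-1.02 ± 0.11), the latter being the largest fall in lin-52 among the 64 genes.

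Of 12 other centrosome genes 4 were higher without UV. The gene pcmd-1, whose product tethers pericentriolar material to the centriole, was at 10.3, 9.75 and 9.14 FPKM in N2 mock and 20.8, 21.4 and 20.5 in lin-52 mock. Irradiated N2 larvae had 7.92, 8.61 and 8.75 FPKM, and irradiated mutants 19.9, 21.7 and 23.1. The mutant levels lay far above N2 in both conditions (1.07 ± 0.07 and 1.30 ± 0.07). The gamma-tubulin complex gene gip-1 fell with UV (-0.48 ± 0.05 and -0.56 ± 0.05). The centrosomal microtubule genes zyg-9 (-0.25 ± 0.05) and tac-1 (-0.31 ± 0.07), which act together, had a negative called strain difference of the UV effect. Both rose with UV in N2 (0.38 ± 0.03 and 0.34 ± 0.05), and in lin-52 the differences were 0.13 ± 0.03, called, and 0.03 ± 0.05, not called.

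Among 14 other spindle genes 2 were higher and 1 was lower without UV. The gene gpr-1, for a GoLoco protein that pulls on the spindle, was at 0.55 ± 0.07 without UV and its near-identical copy gpr-2 at 0.54 ± 0.09 after UV, and how fragments were divided between the copies is not known. The end-binding protein gene ebp-2 had the largest fall in N2 among the 64 genes (-1.21 ± 0.07 in N2 and -0.93 ± 0.07 in lin-52), while the dynein regulator nud-2 rose (0.86 ± 0.05 and 0.62 ± 0.05) and rose less in lin-52 (difference -0.24 ± 0.07). For the kinesin-5 gene bmk-1 the difference of the UV effects was -0.24 ± 0.07. Cytokinesis gave 2 higher genes of 8 without UV, with the formin gene cyk-1 at 0.29 ± 0.06. It rose with UV in N2 (0.65 ± 0.06) and less in lin-52 (difference -0.32 ± 0.08), the anillin gene ani-1 rose in both strains (0.29 ± 0.05 and 0.34 ± 0.05), and nop-1 was higher in lin-52 UV than in N2 UV (0.31 ± 0.08). Of 11 other anaphase-promoting complex genes 4 were higher and 1 lower without UV, with mat-2 at 0.46 ± 0.04, and after UV apc-17 led at 0.71 ± 0.08. With UV gfi-3 rose in both strains (0.62 ± 0.06 and 0.43 ± 0.06), apc-11 fell in both (-0.52 ± 0.10 and -0.46 ± 0.10), and mat-2 fell less in lin-52 than in N2 (difference 0.24 ± 0.06).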

How the data were processed

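RNA of whole L1 larvae was depleted of ribosomal RNA and sequenced as stranded, paired-end libraries of 75 bases. The authors aligned reads with Tophat 2.0.10 and made FPKM values with Cufflinks 2.1.1 and the Ensembl 85 annotation, and the deposited table holds these FPKM values, which carry no counts, so that count models were not used. The authors' own tests used DESeq2. The genome build and the use of strand in counting are not given in the sources used here. Of 4 replicates per condition the authors kept 3, and p-values measure only the spread between these.

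FPKM were divided by median-ratio size factors (0.969 to 1.049) over protein-coding genes above 0 in every library. Genes that averaged 1 FPKM or more were tested in 1 fit over 12 libraries, as log2(FPKM + 0.5), with limma 3.58.1 in R 4.3.3 (group means, trended empirical Bayes, Benjamini-Hochberg adjustment, threshold 0.05, 8 residual degrees of freedom). The fit was tested on simulated data, drawn independently for each gene, with changes put on the lin-52 mock libraries only. Shifts of a whole library were not simulated, so that test does not cover them. Other steps used Python 3.11.15, matplotlib 3.10.9, scipy 1.17.1, pandas 2.3.3 and numpy 2.4.6. Of the 46245 identifiers, 45990 were found in Ensembl 115, and 1 of 192 listed genes (dsn-1) was not matched. The 41 genes, the other lists and the tests were chosen with earlier results of these data known. Within each functional group the genes named with values in every library were those with the largest called difference in each comparison, together with every gene whose UV effect differed between strains. Alternatives changed the scaling, the pseudocount, the filter, the gene types, the trend, the replicate block and the libraries used. Groups of 3 libraries limit the precision, and depth is known only as a ratio between libraries.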

Additional observations from a re-analysis of the deposited data

Results flagged for a closer look

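The UV effect in lin-52 minus that in N2 passed the limma threshold in 5 of the 41 genes and in 7 of the 64 other genes of the machinery, counts that, over both directions together, lie near the shares over all tested genes (5.44% positive and 6.2% negative). Among the 41 genes the difference was 0.64 for top-2, 0.59 for tpxl-1, 0.44 for smc-4, 0.40 for icp-1 and 0.22 for plk-1. Among the others it was 0.59 for the condensin gene capg-2, 0.24 for the anaphase-promoting complex gene mat-2, -0.32 for the formin gene cyk-1, -0.31 for tac-1, -0.25 for zyg-9, and -0.24 for nud-2 and for bmk-1. The calls of top-2, tpxl-1, smc-4, icp-1 and capg-2 were kept under all 23 alternatives. Those of plk-1, nud-2, bmk-1, mat-2, cyk-1, tac-1 and zyg-9 were lost under 17, 16, 14, 10, 5, 2 and 1 of them. Groups of 3 libraries were not tested for single outlying samples.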

How the results depend on the processing

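Under 24 alternatives (23 for the strain difference of the UV effects) no called difference of the 41 genes changed sign, and 87 of 116 calls were kept under all of them. Of the calls kept, 9 of 25 were between strains without UV, 25 of 29 between strains after UV, 28 of 30 for UV in N2, 21 of 27 for UV in lin-52 and 4 of 5 for the difference of the UV effects. With the FPKM as deposited and with an equal sum of FPKM, 0 genes were lower in lin-52 UV than in N2 UV and 7 rose with UV in N2. With lin-52 mock 2 and 4 left out, chosen after seeing the data, 9 genes were higher in lin-52 mock and 3 rose with UV in lin-52, and 230 of all tested genes were higher and 88 lower. In that fit the median SE without UV was 0.116 against 0.0838, and the lone lin-52 mock library is assumed to vary like the other groups. Leaving out each library in turn gave 21 to 27 higher and 0 to 0 lower without UV, 26 to 31 higher and 1 to 1 lower after UV, 3 to 3 risen and 26 to 28 fallen in N2, 4 to 5 risen and 21 to 23 fallen in lin-52, and 4 to 6 positive and 0 to 0 negative differences of the UV effects. Whether same-numbered libraries of different groups were paired is not known. Their 13 correlations ran from -0.164 to 0.251, with a median of -0.011 and 3 above 0.1. The 41 correlations between libraries of other numbers ran from -0.182 to 0.188, with a median of -0.008 and 5 above 0.1. Of the 12 libraries, 5 correlated best with their own number. The median difference of the UV effects, near 0 throughout, was 0.001 without N2 mock 1 and 0.009 with lin-52 mock 2 and 4 left out, against -0.036. The median UV difference of the 41 genes depended on the scaling. With an equal sum of FPKM it was -0.202 in N2, and with quantile normalization -0.336, against -0.278. In lin-52 it was -0.1 and -0.217, against -0.178. The median over all tested genes in N2 moved too, to 0.075 and -0.044, against 0.002. With the replicate block, 22 genes were higher without UV and 0 lower, 25 higher and 1 lower after UV, 3 rose and 26 fell in N2, 5 rose and 21 fell in lin-52, and 4 differences of the UV effects were positive and 0 negative. The planned search for a promoter motif, with and without a mismatch, was not run because no genome sequence was used here. The SE of a pairwise difference was 0.04 to 0.12, and the part of depth in it was not tested.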

Other observations

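The 41 genes were unevenly placed in the genome (WBcel235). Chromosome I held 12 of them (29.3%, beside 16.0% of all tested genes), chromosome II 8, chromosome III 10, chromosome IV 6 and chromosome V 5. Chromosome X held 0 of the 41 and 1894 of the tested genes (14.7%). Of the 12 genes on chromosome I, 5 were higher in lin-52 mock, as were 6 of 8 on II, 5 of 10 on III, 5 of 6 on IV and 4 of 5 on V. Over all tested genes 3.59% were higher, and the share for each chromosome is not given here.

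Gene span, from the first to the last annotated base, had a median of 3212 bases in the 41 genes (894 to 17179) and of 2538 in all tested genes. Across the 41 genes, which are not independent replicates, log10 span and the UV difference in N2 had r = -0.04 and rho = -0.04, and across all tested genes r = -0.14 and rho = -0.12. In lin-52 the values were r = 0.04 and rho = 0.11 for the 41 genes, and r = -0.14 and rho = -0.12 for all. The mean log2 level of the 41 genes and the UV difference in N2 had r = -0.18 and rho = -0.18.

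Small nucleolar RNA genes lie within the spans of air-1, klp-19, cyk-4 and top-2. The one within cyk-4 (K08E3.11) averaged 194.3 FPKM in N2 mock and 222.3 in lin-52 mock and was listed at 0 in every irradiated library. The one within top-2 (K12D12.6) averaged 367.5 FPKM in N2 mock and 302.3 in N2 UV, while in the mutant it averaged 551.5 without and 383.3 with UV, and FPKM of such short transcripts are imprecise.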
